A study of Mus musculus with 43 samples.

Results

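The expression of 10 genes of lipid handling and lysosomal proteolysis, of 24475 genes in the count table, was followed in whole lungs of mice exposed to house dust mite extract (HDM). They were chosen by name: Trem2, Gpnmb, Cd9, Lpl, Apoe, the cathepsin genes Ctsk, Ctsd, Ctsb and Ctsl, and the proton pump gene Atp6v0d2. RNA sequencing covered 43 lungs, 1 library each, and the total count per library ran from 11.9 to 26.7 M (M for 1e+06). All animals were females on a hybrid 129S6/C57BL/6 background, and their age is given as 8 to 12 weeks. With HDM for 19 weeks, this cannot be the age at which the lungs were taken. For antibody testing, mice carried human sequence in place of their own IL-4, IL-33 and IL-4Rα ectodomain. The 7 groups were saline (n = 5), HDM for 11 weeks (n = 6), HDM for 19 weeks (n = 7), and HDM for 19 weeks combined with isotype control (n = 7), itepekimab, which blocks IL-33 (n = 6), dupilumab, which blocks IL-4Rα (n = 7), or both antibodies, called the combination (n = 5). The mice on 1 antibody also received isotype antibody. HDM was given intranasally 3 times a week. The labels do not give the antibody start of these mice or the duration of saline. The labels name each library by group and number and do not say more on the origin of the replicates, so the tests measure the spread between these libraries.

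TREM2 is a lipid-sensing receptor of macrophages that signals through the adaptor TYROBP, and macrophages that take up lipid and cell debris switch on GPNMB, lipid-binding proteins and lysosomal genes with it. Cathepsins are proteases that mature in the acid lumen of the lysosome, which the vacuolar proton pump (V-ATPase) acidifies. In the lung these genes are known from macrophages that clear surfactant and debris, but Cd9, Lpl, Apoe, Ctsb, Ctsd and Ctsl are also made by other cell types, so a whole-lung level is not that of 1 cell type. In bulk tissue, fewer or more cells of a type and less or more RNA per cell cannot be told apart.

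All 10 genes are protein-coding and were matched to GRCm38.p6, the assembly called mm10. Trem2 lies at chr17:48346401-48352276, Gpnmb at chr6:49036518-49058182, Cd9 at chr6:125460266-125494760, Lpl at chr8:68880555-68906932 and Apoe at chr7:19696244-19701310. Ctsk lies at chr3:95499210-95509387, Ctsd at chr7:142375910-142387827, Ctsb at chr14:63122462-63145923, Ctsl at chr13:64361890-64370772 and Atp6v0d2 at chr4:19876838-19922566. Ctsb overlaps Fdft1, and Cd9 overlaps Gm26728 and Gm28809, in the RefSeq gene table, and the sources used here do not say whether reads were counted by strand. The deposited expected counts of Lpl and Atp6v0d2 carried decimals in 43 of 43 libraries and those of Ctsb in 9, and the other 7 genes had whole values.

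RefSeq promoters were given for 7 of the 10 genes, and not for Lpl, Ctsb and Atp6v0d2. The 250 bases before the start are shown for 4 of the genes that rose under HDM: the receptor gene Trem2, Gpnmb, and the cathepsin genes Ctsd and Ctsl. They are shown to set apart the promoters that hold the E-box CACGTG, the core of the element bound by the lysosomal transcription factors TFEB, TFE3 and MITF, from those that do not. Capitals mark CACGTG in Ctsd and Ctsl and the letters TGANTCA, with any base at N, in Trem2, where they read TGAATCA.
Trem2, chr17:48346151-48346400, plus strand: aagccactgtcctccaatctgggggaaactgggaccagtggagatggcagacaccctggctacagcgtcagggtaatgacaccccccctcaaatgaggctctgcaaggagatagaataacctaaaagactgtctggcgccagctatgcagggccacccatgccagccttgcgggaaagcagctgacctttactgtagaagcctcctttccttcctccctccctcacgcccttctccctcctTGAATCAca
Gpnmb, chr6:49036268-49036517, plus strand: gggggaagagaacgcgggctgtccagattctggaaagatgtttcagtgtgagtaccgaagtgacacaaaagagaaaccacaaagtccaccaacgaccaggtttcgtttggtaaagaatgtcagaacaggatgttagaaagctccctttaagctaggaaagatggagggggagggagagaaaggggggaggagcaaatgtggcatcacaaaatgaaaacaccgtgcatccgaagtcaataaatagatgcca
Ctsd, chr7:142387828-142388077, minus strand: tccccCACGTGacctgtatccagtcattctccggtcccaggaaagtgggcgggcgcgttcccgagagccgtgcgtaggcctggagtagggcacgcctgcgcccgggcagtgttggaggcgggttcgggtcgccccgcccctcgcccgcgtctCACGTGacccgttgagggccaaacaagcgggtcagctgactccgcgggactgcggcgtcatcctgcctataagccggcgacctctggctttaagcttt
Ctsl, chr13:64370521-64370770, minus strand: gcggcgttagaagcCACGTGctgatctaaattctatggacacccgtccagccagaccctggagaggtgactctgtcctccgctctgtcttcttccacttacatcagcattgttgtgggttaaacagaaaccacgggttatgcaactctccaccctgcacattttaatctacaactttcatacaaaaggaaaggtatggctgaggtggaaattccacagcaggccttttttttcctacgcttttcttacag

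Counted from the start site, Ctsd held CACGTG at -245 and -98, and Ctsl at -236. Both strands were searched. Of 32851 RefSeq promoter windows of that length, 6.02% held CACGTG, 12.3% the related E-box CATGTG, 2.44% the ETS-type motif GAGGAAGT and 6.75% TGANTCA. Among 9 promoters of the 7 genes, 2 held CACGTG (Ctsd, Ctsl), 1 held CATGTG (Cd9), 1 held TGANTCA (Trem2) and 0 held GAGGAAGT. The promoter of Ctsk, which also rose under HDM and is not shown, held none of these motifs. A match describes these letters only and is no evidence of binding. Tfeb, Tfe3 and Mitf themselves rose at 19 weeks of HDM against saline, by 1.88 ± 0.62, 1.29 ± 0.36 and 0.86 ± 0.29 (log2 fold change ± SE). The lowest 19-week mice lay within the saline range for Tfeb and Mitf, and above it for Tfe3. Of all genes tested, 19.2% were higher in this comparison at an adjusted p under 0.05. The part of the GC gradient described next in these rises was not tested, nor was any link to the motifs.

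A gradient in GC content ran through the libraries and touches several of the genes. The GC slope, the change of a library's log2 expression against the mean library per 10 percentage points of transcript GC content, exceeded 0.75 in 10 libraries: 2 of the HDM mice at 19 weeks, 2 on anti-IL-33, 3 on anti-IL-4Rα and 3 on the combination, but no saline, 11-week or isotype mouse. The cut takes out high slopes only, and combination replicate 2, which it keeps, had the lowest slope of the 43 libraries, -1.01. The leading principal component held 43.9% of the variance and separated libraries along this slope. Ctsd in the libraries with a steep slope lay above all other libraries of the same group in 4 of 4 groups, and Apoe in 3 of 4. Marker genes of lung epithelium were present in every group, with summed levels of 6 alveolar type 2 markers of 11400 to 44740 CPM (counts scaled to a library total of 1e+06). Haemoglobin and other erythroid markers (6 genes) summed to 192900 CPM in anti-IL-4Rα replicate 2, 29230 in anti-IL-4Rα replicate 6, and 21610 and 11840 in combination replicates 1 and 8, all steep libraries. Where leaving out the steep libraries, or the GC slope as a covariate, changed a call of the 10 genes, those values stand beside it. For uncalled genes they are given in part only, so a value printed alone may still move with the slope. The part of erythroid RNA in the group differences was not tested.

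**Figure D1:**
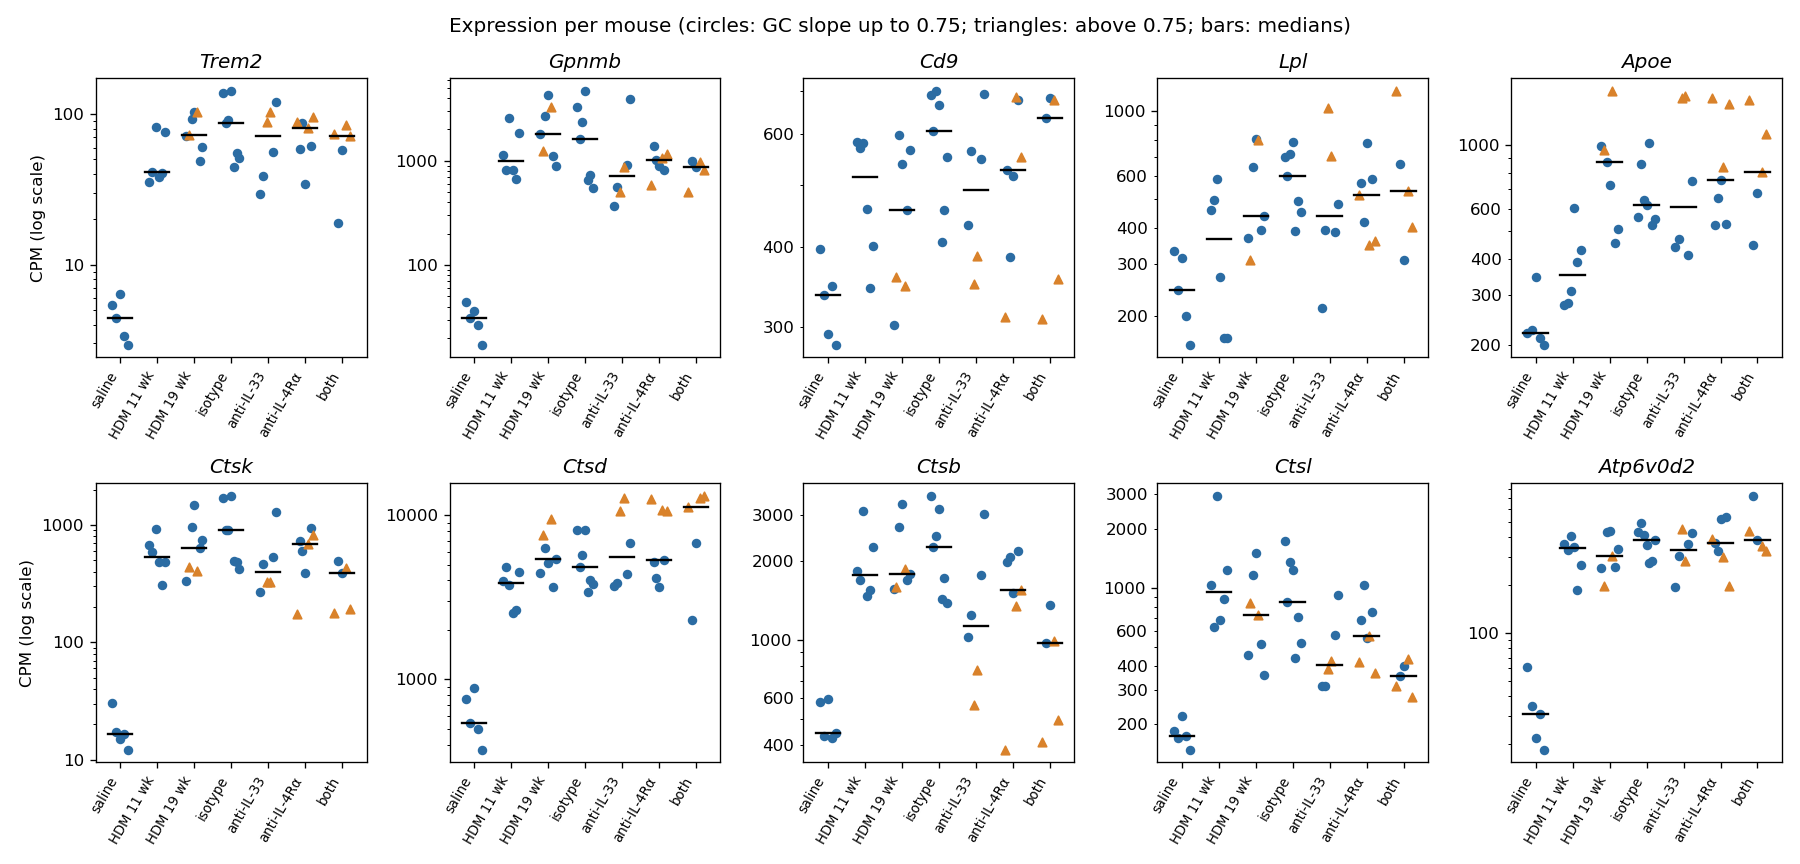
Expression of the 10 genes in every mouse, in CPM on a log scale, by group. Each point is a library, triangles mark the 10 libraries whose GC slope exceeded 0.75, and bars are group medians. Gpnmb, Ctsk, Trem2, Ctsd, Ctsb, Ctsl and Atp6v0d2 lie above every saline mouse at 11 weeks, and the combination mice lie below every isotype mouse for Ctsb and Ctsl.

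The first question was what chronic HDM exposure did to these genes. At 11 weeks 7 of the 10 genes were higher than in saline and 0 were lower: Gpnmb, Ctsk, Trem2, Atp6v0d2, Ctsl, Ctsd and Ctsb. At 19 weeks 9 of 10 were higher, with Apoe and Lpl added, and Cd9 was the exception. Among all 15979 genes tested, 15.4% were called at 11 weeks (8.65% higher) and 34.8% at 19 weeks (19.2% higher) at a Benjamini-Hochberg adjusted p under 0.05 from edgeR's quasi-likelihood test. The 10 members had a median log2 fold change of 2.69 at both times, and that over all tested genes was 0.0034 and 0.01. For 7 genes at 11 weeks and 8 at 19 weeks every HDM mouse lay above every saline mouse, as did 11.1% and 13.9% of all genes. The summed level of the 10 genes was 1654 to 2738 CPM in saline, 7172 to 15270 at 11 weeks and 9231 to 18810 at 19 weeks. Both comparisons share the saline mice.

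Of the surface proteins, Trem2 in saline was at 5.42, 4.41, 6.36, 3.34 and 2.94 CPM. Its lowest, median and highest values were 35.5, 41.1 and 82.1 CPM at 11 weeks and 48.6, 72.2 and 103.8 at 19 weeks. No HDM mouse came near the saline range. The log2 fold change against saline was 3.54 ± 0.41 (SE, adjusted p = 2.54e-08) at 11 weeks and 4.13 ± 0.41 (17.5-fold, adjusted p = 1.19e-09) at 19 weeks.

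Gpnmb, which encodes a glycoprotein of phagocytes with high lysosomal load, showed the largest fold change of the 10 genes at both times. It was at 44.0, 31.0, 36.3, 26.7 and 17.2 CPM in the saline mice. At 11 weeks it reached 667 to 2573 CPM (median 986) and at 19 weeks 892 to 4295 (median 1822), so the groups were far apart although the HDM mice themselves spread widely. The log2 fold change was 5.40 ± 0.64 (adjusted p = 4.89e-08) and then 6.14 ± 0.66 (70.6-fold, adjusted p = 4.20e-09). Cd9, a tetraspanin found on many cell types, was already at 282 to 397 CPM in saline (median 337) and at 345 to 584 (median 515) and 302 to 598 (median 457) at 11 and 19 weeks. Its ranges overlapped, with a log2 fold change of 0.57 ± 0.24 (adjusted p = 0.107) and 0.45 ± 0.23 (adjusted p = 0.119). In the 33 libraries without a steep slope Cd9 passed at both times, at 0.55 (adjusted p = 0.0191) and 0.56 (0.0168), as it did with limma voom (0.53 at both times, adjusted p = 0.00176 and 0.00202) and in the GC covariate fit (0.64 and 0.69, adjusted p = 0.0141 and 0.00933). With the compared groups alone it passed at 11 weeks (adjusted p = 0.011) and not at 19 weeks (0.071).

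The genes of lipid proteins had smaller fold changes. Apoe, which encodes the apolipoprotein that carries cholesterol out of macrophages, was at 219, 226, 345, 211 and 200 CPM in saline, 276 to 601 (median 350) at 11 weeks and 456 to 1546 (median 873) at 19 weeks. The 11-week mice overlapped saline and the 19-week mice did not. Its log2 fold change was 0.66 ± 0.35 (adjusted p = 0.229) and then 1.85 ± 0.36 (3.60-fold, adjusted p = 0.000128). At 11 weeks limma voom called it (0.68, adjusted p = 0.00108), as did the fits without the steep libraries (0.65, adjusted p = 0.0311) and with the compared groups alone (0.68, adjusted p = 0.0283), while DESeq2 did not (adjusted p = 0.237). When the GC slope was a covariate the 19-week value was 1.16 (adjusted p = 0.000207).

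Lpl, the lipase that releases fatty acids from triglycerides, was at 332, 245, 315, 200 and 159 CPM in saline, 167 to 588 (median 365) at 11 weeks and 310 to 806 (median 440) at 19 weeks. It overlapped saline at both times, rose at 19 weeks by 1.11 ± 0.36 (adjusted p = 0.0157) and was at 0.52 ± 0.36 (adjusted p = 0.398) at 11 weeks, where limma voom called it (0.56, adjusted p = 0.0325). Without saline replicate 5 the 19-week value was 0.95 and no longer passed (adjusted p = 0.0533). Lpl is also a gene of adipocytes, and 6 adipocyte markers summed to 1131 CPM in saline replicate 3 and to 26.7 to 63.9 CPM in the other saline mice. All 6 fell at 19 weeks against saline while Lpl rose. The part of fat tissue in the Lpl values was not tested.

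Of the proteases, Ctsk, the collagen-degrading cathepsin best known from osteoclasts, rose almost as much as Gpnmb. It was at 30.5, 17.3, 14.9, 16.6 and 12.2 CPM in saline, 306 to 923 (median 536) at 11 weeks and 331 to 1476 (median 639) at 19 weeks. The log2 fold change was 4.98 ± 0.53 (adjusted p = 6.09e-09) and 5.29 ± 0.53 (39.1-fold, adjusted p = 1.47e-09). Groups did not overlap.

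Ctsd, the aspartic protease of lysosomes, had the highest level per kilobase of the 10 genes. Saline mice had 760, 540, 890, 498 and 373 CPM, against 2517 to 4800 (median 3875) at 11 weeks and 3641 to 9448 (median 5410) at 19 weeks. It rose by 2.60 ± 0.41 (adjusted p = 1.25e-05) and 3.29 ± 0.42 (9.80-fold, adjusted p = 1.57e-07), and by 2.52 at 19 weeks when the GC slope was a covariate (adjusted p = 5.39e-10). The steep 19-week libraries had 7611 and 9448 CPM and the remaining 5 had 3641 to 6316, all above saline.

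Ctsb and Ctsl are the broad cysteine proteases of the lysosome. Ctsb was at 581, 432, 595, 423 and 442 CPM in saline, and at 1476 to 3105 (median 1765) and 1561 to 3308 (median 1781) at 11 and 19 weeks. It rose by 2.01 ± 0.38 and 2.07 ± 0.38 (adjusted p = 0.000199 and 5.87e-05). Ctsl was at 185, 171, 221, 174 and 148 CPM in saline, and at 629 to 2942 (median 952) and 357 to 1498 (median 728) at the 2 times. It rose by 2.78 ± 0.41 and 2.14 ± 0.39 (adjusted p = 3.45e-06 and 5.85e-05). For both genes every HDM mouse exceeded every saline mouse.

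Atp6v0d2 encodes the d2 form of a V-ATPase membrane subunit, the form of osteoclasts and some macrophages. It was at 61.3, 34.8, 21.9, 30.9 and 18.4 CPM in saline, 185 to 408 (median 340) at 11 weeks and 197 to 439 (median 302) at 19 weeks. The log2 fold change was 3.24 at both times (SE 0.31), with no overlap (adjusted p = 8.37e-10 and 4.55e-10). The widespread d1 form, Atp6v0d1, rose by 1.53 ± 0.31 at 19 weeks, from 68.8 ± 14.8 to 198 ± 64.4 CPM (mean ± SD).

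**Figure D2:**
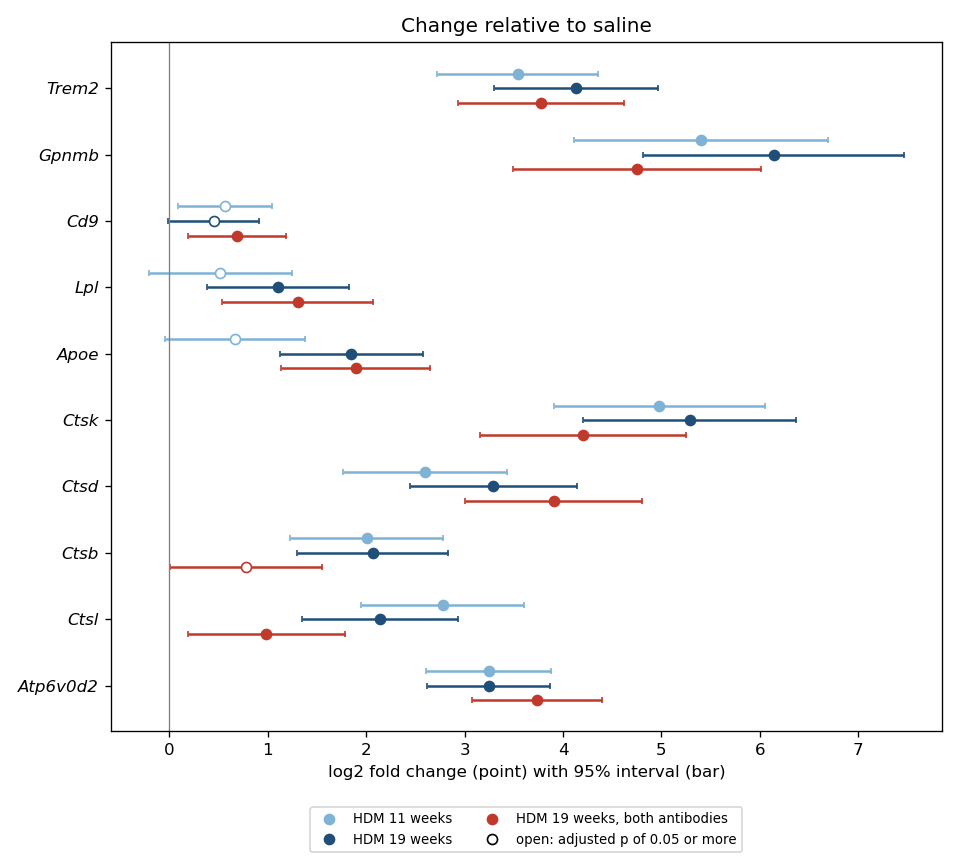
Log2 fold change against saline for the 10 genes at 11 and 19 weeks of HDM and at 19 weeks with both antibodies. Points are estimates, bars 95% intervals, and open points did not pass. Gpnmb (6.14) and Ctsk (5.29) have the largest values at 19 weeks and Cd9 (0.45) the smallest, and Ctsb under both antibodies is at 0.78.

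The order of the genes by level per kilobase of transcript also changed. In saline the mean level was 288 ± 98.4 CPM per kilobase (SD) for Ctsd, 270 ± 37.6 for Cd9 and 171 ± 42.1 for Apoe, with Ctsd and Cd9 within their SD of each other, followed by Ctsb, Ctsl and Lpl (104, 91.2 and 60.7). Atp6v0d2, Ctsk, Gpnmb and Trem2 were lowest at 13.2, 12.1, 8.38 and 4.13. At 19 weeks Ctsd stood first at 2819 ± 935. Apoe, Gpnmb, Ctsk, Ctsb, Ctsl and Cd9 followed at 615, 592, 472, 437, 402 and 369, values that do not differ between neighbours beyond their SD of 96.1 to 343. Lpl (131 ± 50.8), Atp6v0d2 (125 ± 36.1) and Trem2 (72.5 ± 19.7) were lowest. Gpnmb moved from the ninth to the third place and Cd9 from the second to the seventh.

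Common macrophage genes were set beside all genes, of which 34.8% were called at 19 weeks against saline (19.2% higher). Of 7 genes shared by macrophages, 1 rose at 19 weeks: Cd68, which encodes a lysosomal membrane protein, by 3.52 ± 0.31 from 44.5 ± 13.1 to 509 ± 134 CPM. The growth factor receptor gene Csf1r was at 198 ± 45.9 CPM in saline and 159 ± 30.6 at 19 weeks (log2 fold change -0.32, adjusted p = 0.21), Adgre1 at 41.9 ± 15.0 and 47.3 ± 17.4 (0.18, adjusted p = 0.729), and Mertk at 39.3 ± 10.6 and 39.8 ± 20.2 (0.02, adjusted p = 0.978). Lyz2 and Itgam had higher means at 19 weeks, with overlap: 3578 ± 1074 and 6610 ± 2133 CPM for Lyz2, and 55.8 ± 11.6 and 77.6 ± 26.1 for Itgam. Without Lyz2 the 6 other shared markers, Cd68 included, summed to 312 to 494 CPM in saline and 620 to 1021 at 19 weeks. Of 10 alveolar macrophage markers 1 rose (Chil3, 4.81 ± 0.41) and 5 fell, and of 11 interstitial macrophage markers 6 rose and 2 fell. Without Chil3 the alveolar markers summed to 208 to 399 CPM in saline and 61.5 to 447 at 19 weeks. The part of macrophage number in the 10 genes' rise was not tested.

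The genes related to these members rose in part. Their counts, here and in the next paragraph, stand beside 8.65% of all genes called higher at 11 weeks and 19.2% at 19 weeks. Of 28 genes of lipid-associated macrophages and TREM2 signalling, 14 rose and 0 fell at 11 weeks, and 20 rose and 1 fell at 19 weeks (median log2 fold change 1.29). At 19 weeks Mmp12, the macrophage elastase, rose by 7.17 ± 0.75 from 6.38 ± 2.37 to 917 ± 552 CPM. Spp1, osteopontin, rose by 5.54 ± 0.63, Lgals3, a galectin of phagocytes, by 4.02 ± 0.51 and Itgax, the CD11c integrin chain, by 3.07 ± 0.32. The adaptor gene Tyrobp rose by 1.54 ± 0.47, the kinase gene Syk by 1.13 ± 0.23 and Plcg2 by 0.60 ± 0.21, all below Trem2 itself. The lipid droplet gene Plin2 rose by 1.82 ± 0.27 and the lysosomal lipase gene Lipa by 1.61 ± 0.22, while the fatty acid transporter gene Cd36 fell by 0.93 on the log2 scale.

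Of 14 other cathepsin and cystatin genes tested, 7 rose and 1 fell at 11 weeks and 7 rose and 0 fell at 19 weeks (median 0.61). Ctsz rose by 2.59 ± 0.23, Ctss by 2.13 ± 0.23, the asparaginyl protease gene Lgmn by 1.78 ± 0.27 and the inhibitor gene Cstb by 2.39 ± 0.39. Of 22 V-ATPase genes, 11 and then 14 rose and 0 and then 2 fell (median 0.92 at 19 weeks), with Atp6v0c at 2.48 ± 0.41 and Tcirg1 at 2.34 ± 0.43. Of 24 lysosomal genes, 8 and then 17 rose and 0 fell (median 1.07 at 19 weeks). Psap, the precursor of saposins, rose by 2.75 ± 0.37, progranulin (Grn) by 2.33 ± 0.53 and the glycosidase genes Gla and Hexa by 2.25 ± 0.37 and 2.05 ± 0.34. Of 13 osteoclast-type genes tested, 7 rose and 1 fell at each time. The fusion genes Ocstamp and Dcstamp rose by 3.78 ± 0.80 and 3.58 ± 0.78 at mean levels of 1.67 and 2.45 CPM, and Acp5, the tartrate-resistant phosphatase, rose by 2.60 ± 0.36 to 166 ± 40.6 CPM.

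The next comparisons asked whether time or the control antibody changed the genes. Between 19 and 11 weeks 0 of the 10 genes passed with edgeR, against 0.106% of all genes, and 1 had an unadjusted p under 0.05, as did 14.4% of all genes. That gene was Apoe, at 1.19 ± 0.33 (adjusted p = 0.155), where 7 of 7 mice lay above the 11-week mean. DESeq2 and limma voom called Apoe at adjusted p = 0.0487 and 0.017. Apoe was at 0.90 without the steep libraries (adjusted p = 0.129) and at 0.69 in the GC covariate fit (adjusted p = 0.172), and passed in neither. Between isotype and HDM alone at 19 weeks 0 of 10 passed, 0 had an unadjusted p under 0.05, where 2.13% of all genes did and 0% passed. The largest difference was 0.41 ± 0.38 for Ctsk (95% interval -0.36 to 1.19).

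The isotype mice were spread for most of the genes. Gpnmb was at 3278, 1633, 2379 and 4672 CPM in replicates 1 to 4 and at 657, 736 and 555 in replicates 6, 8 and 9. For 8 of the 10 genes, all but Apoe and Atp6v0d2, the same 4 mice lay above the same 3. This spread enters every comparison with isotype.

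Blocking IL-33 or IL-4Rα alone was then compared with isotype. With edgeR 0 of 10 genes passed for either antibody, as did 0% of all genes. For anti-IL-33, 3 genes had an unadjusted p under 0.05, against 18% of all genes, all lower. Ctsl was at 315 to 915 CPM (median 404) against 438 to 1727 (median 848) with isotype, -1.002 ± 0.35 (adjusted p = 0.246), Ctsk at -0.83 ± 0.40 and Ctsb at -0.71 ± 0.34. In 6 of 6 anti-IL-33 mice Ctsl lay below the isotype mean. Without the steep libraries Ctsl was at -0.88, Ctsk at -0.57 and Ctsb at -0.37. DESeq2 called 0 and limma voom 1, Ctsl at -1.02 (adjusted p = 0.0335). Of all 15979 genes limma voom called 478 higher and 534 lower in this comparison.

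For anti-IL-4Rα, 1 gene had an unadjusted p under 0.05, against 14% of all genes: Gpnmb at -1.002 ± 0.45 (adjusted p = 0.324). It was at 590 to 1378 CPM (median 1018) against 555 to 4672 (median 1633) with isotype, within the isotype range. DESeq2 and limma voom called 0 of the 10 genes. The intervals around both antibodies' differences were wide, for Trem2 -0.93 to 0.39 with anti-IL-33 and -0.90 to 0.36 with anti-IL-4Rα. With either antibody Trem2 was at -0.27 in the main fit and at -0.52 without the steep libraries.

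With both antibodies 3 cathepsin genes were lower than with isotype and the remaining 7 genes did not pass. Ctsb fell to 0.371 of the isotype level, Ctsl to 0.364 and Ctsk to 0.354, while Atp6v0d2, Lpl, Cd9 and Apoe had log2 differences between -0.13 and 0.39. Among all genes 19% were called, 6.32% lower and 12.6% higher. The 10 genes had a median log2 fold change of -0.32, and all tested genes one of 0.04.

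Ctsb in the combination mice was at 411, 974, 1363, 990 and 496 CPM, against 1383 to 3536 (median 2262) with isotype. Each of the 5 mice lay below each of the 7 isotype mice, the nearest by 1363 against 1383. The log2 fold change was -1.43 ± 0.37 (adjusted p = 0.0155). Ctsl was at 315, 355, 400, 432 and 276 CPM against 438 to 1727 (median 848), again with no overlap and with 432 against 438 at the edge, and fell by 1.46 on the log2 scale (SE 0.38, adjusted p = 0.016). Of all genes 2.55% were lower with no overlap. Ctsk was at 177, 497, 387, 430 and 194 CPM against 418 to 1766 (median 899), with overlap, at -1.50 ± 0.44 (adjusted p = 0.0249).

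These calls rested on few mice. Combination replicates 1 and 8 had the lowest Ctsb, Ctsl and Ctsk of their group, and they are the steep libraries with 21610 and 11840 CPM of erythroid and 414 and 483 CPM of adipocyte markers, against 576 to 2516 and 26.04 to 49.3 CPM in the other 3. The part of these cells' RNA in the cathepsin values was not tested. Without combination replicate 1 none of the 3 passed (adjusted p = 0.0799 for Ctsb, 0.0668 for Ctsl and 0.123 for Ctsk), nor without replicate 8 (0.0552, 0.0524 and 0.0832), while the log2 values stayed between -1.26 and -1.42. Ctsk was also lost without isotype replicate 1 (-1.30, adjusted p = 0.0513). Leaving out the 10 steep libraries kept replicates 2 and 3 of the combination, with GC slopes of -1.01 and -0.15. In that fit 0 genes passed: Ctsl was at -1.37 (adjusted p = 0.137), Ctsb at -0.96 (0.114) and Ctsk at -1.10 (0.22). When the GC slope was a covariate all 3 still passed, at -1.29 for Ctsb, -1.37 for Ctsl and -1.40 for Ctsk, and Trem2 passed too, at -0.87 (adjusted p = 0.0414).

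Gpnmb under both antibodies was at 500, 990, 877, 977 and 823 CPM, all within the isotype range of 555 to 4672 but for the first, at -1.25 ± 0.51 (adjusted p = 0.0707). All 5 mice lay below the isotype mean. DESeq2 called it (adjusted p = 0.0416), as did the fits without combination replicate 2 (0.048) and without anti-IL-33 replicate 7 (0.0427). It did not pass with limma voom (-0.72, adjusted p = 0.322) or without the steep libraries (-1.08, adjusted p = 0.368), and the 8 other alternatives that left out no single library gave adjusted p = 0.0699 to 0.134. Trem2 was at 74.4, 18.8, 58.2, 85.02 and 71.6 CPM against 44.7 to 142 (median 87.1), at -0.50 ± 0.35 (adjusted p = 0.266). Without the steep libraries Trem2 was at -1.17 (adjusted p = 0.150), and it passed in the GC covariate fit at -0.87 (adjusted p = 0.0414).

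Ctsd did not pass, and its values leaned higher. It was at 11179, 2312, 6737, 12612 and 13044 CPM with both antibodies against 3405 to 8118 (median 4811) with isotype, at 0.76 ± 0.36 (adjusted p = 0.115). The 3 values above every isotype mouse came from the steep libraries. Limma voom called it higher (1.20, adjusted p = 0.00478), as did the fit without combination replicate 2 (1.01, adjusted p = 0.0202), while the value was 0.14 when the GC slope was a covariate and -0.25 without the steep libraries. Apoe, at 1434, 447, 682, 803 and 1098 CPM, followed the same order of values: 0.39 ± 0.33, then -0.09 and -0.27.

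Lpl was at 1174, 663, 310, 534 and 403 CPM with both antibodies and 390 to 785 with isotype, at 0.06 ± 0.35. The 6 adipocyte markers, which all rose with both antibodies, summed to 414 and 483 CPM in replicates 1 and 8 and to 26.04 to 49.3 in the other 3. Atp6v0d2 was at 436, 724, 384, 354 and 327 CPM against 276 to 489, at 0.24 ± 0.27 (95% interval -0.30 to 0.79). Cd9 was at 309, 635, 684, 678 and 357 CPM against 408 to 700, at -0.13 ± 0.23. None of these 3 genes passed, and their ranges overlapped the isotype range.

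**Figure D3:**
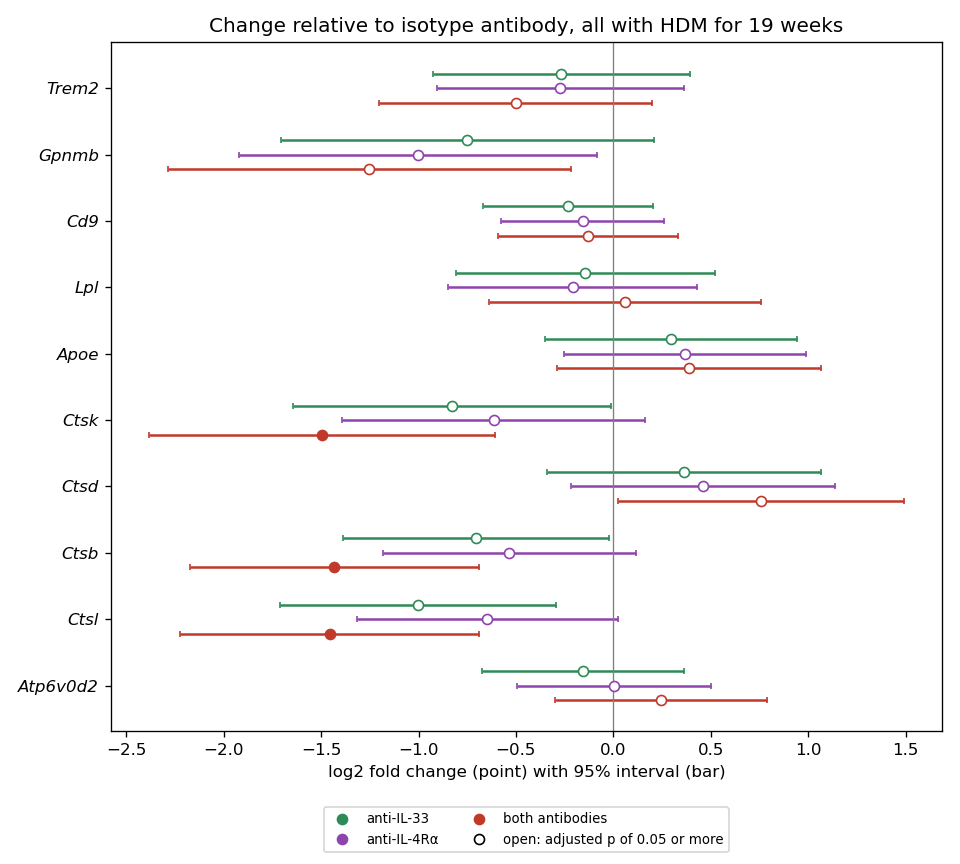
Log2 fold change against isotype for the 10 genes with anti-IL-33, anti-IL-4Rα and both, all after 19 weeks of HDM. Points are estimates, bars 95% intervals, and filled points passed. Ctsk, Ctsb and Ctsl under both antibodies, at -1.50, -1.43 and -1.46, are the filled points.

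**Figure D4:**
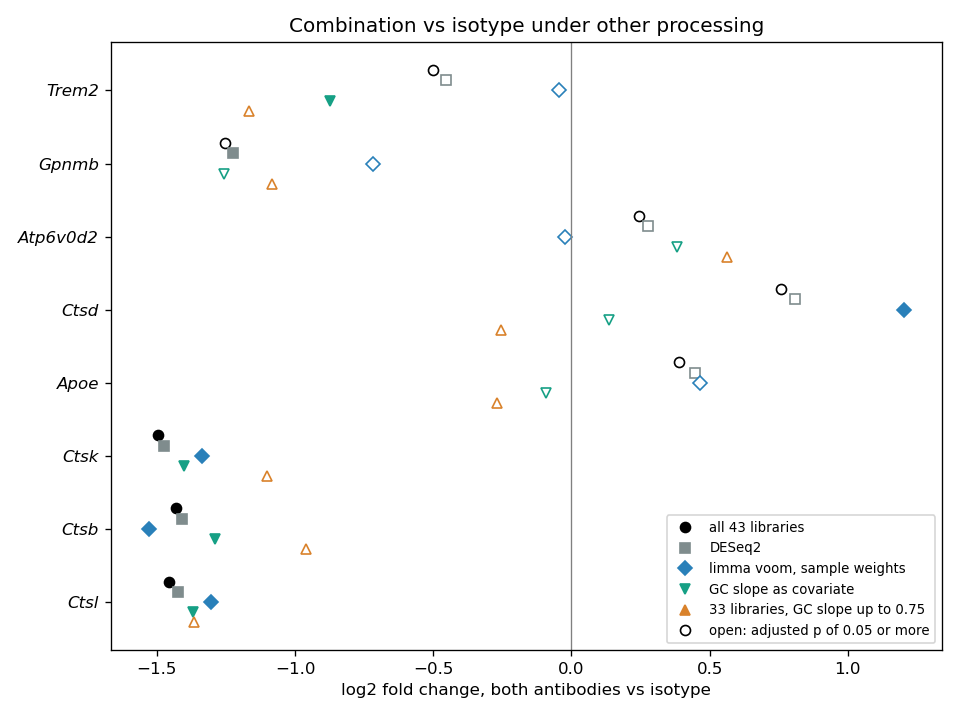
Log2 fold change of 8 of the genes with both antibodies against isotype under 5 ways of processing. Filled symbols passed. Ctsb, Ctsl and Ctsk stay below 0 in each, between -0.96 and -1.53, and are open without the steep libraries, while Ctsd moves from 1.20 to -0.25.

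Macrophage genes in this comparison were mixed: of the 7 shared ones Lyz2, lysozyme, rose (1.20 ± 0.37), Itgam fell by 1.56 on the log2 scale and Cd68 was at -0.09 ± 0.27. Of 10 alveolar macrophage markers 5 rose and 0 fell, where 12.6% of all genes were called higher and 6.32% lower. Without Chil3 the alveolar markers summed to 553 to 1319 CPM against 151 to 511 with isotype. The 6 shared markers other than Lyz2 summed to 649 to 921 CPM against 693 to 1456. The part of cell makeup in the cathepsin values was not tested.

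For 4 lists of related genes the share called in either direction with both antibodies was close to the 19% of all genes. By direction they differed: of all genes 12.6% were called higher and 6.32% lower, while more V-ATPase and lysosomal genes fell than rose. Of 28 lipid-associated genes 3 rose and 3 fell (median -0.07). Mmp12 fell by 2.17 on the log2 scale (SE 0.58), from 853 ± 469 to 189 ± 87.6 CPM, the cholesterol exporter gene Abca1 fell by 1.08 (SE 0.34) and the desaturase gene Scd1 by 0.99 (SE 0.35), while Fabp4 rose by 1.36 ± 0.48 and Pparg by 0.59 ± 0.21. Of 14 other cathepsin and cystatin genes Lgmn fell by 0.76 (SE 0.26) and Cst3, cystatin C, an inhibitor of cysteine cathepsins, rose by 1.05 ± 0.34 to 736 ± 331 CPM. Of 22 V-ATPase genes 1 rose and 4 fell, and of 24 lysosomal genes 2 rose and 3 fell, Gla by 1.33 (SE 0.35) and Gusb by 0.89 (SE 0.29) among them. Tfeb rose by 1.69 ± 0.58, from 28.3 ± 5.68 to 91.1 ± 85.3 CPM. Its combination mice ran from 8.46 to 224 CPM, against 20.8 to 38.8 with isotype, and the part of the GC slope was not tested. Of 13 osteoclast-type genes 0 rose and 6 fell (median -0.87), with Tnfsf11, the osteoclast differentiation ligand, at -1.93 ± 0.58, its decoy receptor gene Tnfrsf11b at -1.45 ± 0.42, Ocstamp at -1.94 ± 0.71 and Car2, carbonic anhydrase, at -1.33 ± 0.37. Tnfsf11 and Ocstamp had mean levels of 0.58 and 0.53 CPM. Without the steep libraries 489 of all 15979 genes were called higher and 219 lower. Of the 13 osteoclast-type genes 2 then fell. The counts were 0 up and 1 down of the lipid-associated genes, 0 and 0 of the other cathepsins and of the V-ATPase genes, and 1 and 0 of the lysosomal genes.

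**Figure D5:**
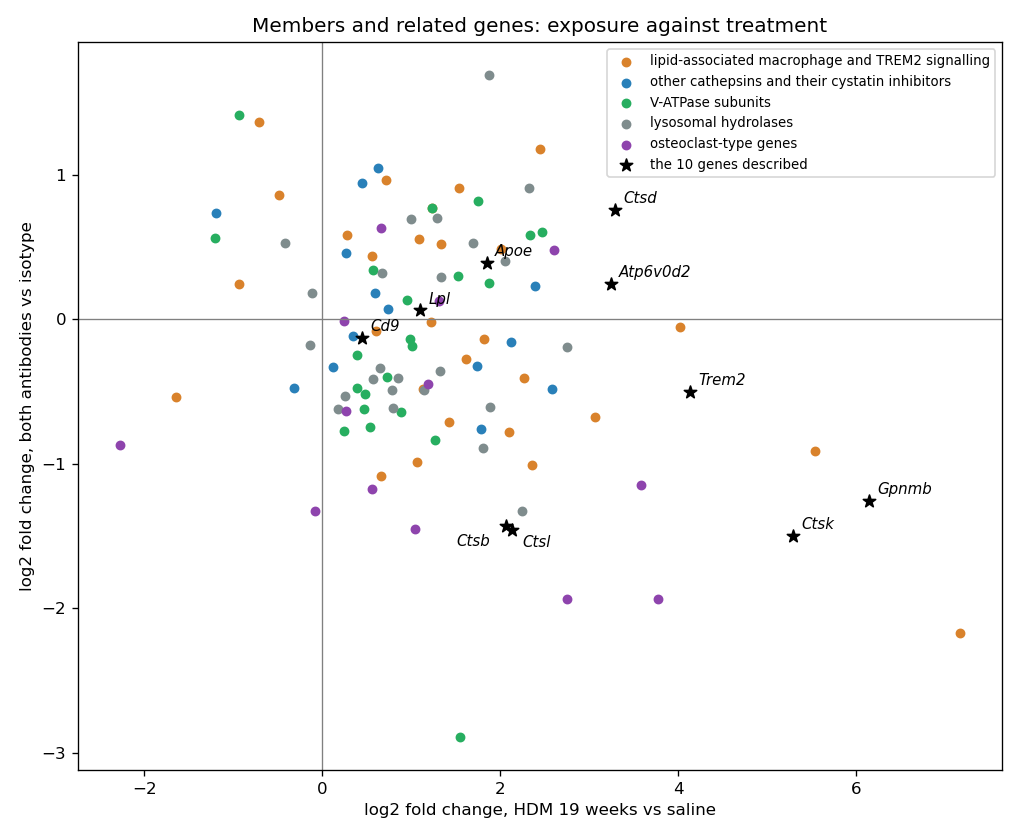
Log2 fold change at 19 weeks of HDM against saline (horizontal) and with both antibodies against isotype (vertical) for the 10 genes (stars) and 5 lists of related genes (dots, 1 per gene). Trem2 and Atp6v0d2, at 4.13 and 3.24 on the horizontal axis, are at -0.50 and 0.24 on the vertical one, where neither passed. Ctsk, Ctsb, Ctsl and Gpnmb lie below -1 on the vertical axis.

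Against each antibody alone, the combination differed for 0 of the 10 genes with edgeR, where 0.0438% (against anti-IL-33) and 0.119% (against anti-IL-4Rα) of all genes passed. Against anti-IL-33, 0 had an unadjusted p under 0.05 (4.87% of all genes did), and against anti-IL-4Rα 3 did (10.7% of all genes): Ctsb at -0.90 ± 0.36 (adjusted p = 0.379), Ctsk at -0.88 ± 0.43 and Ctsl at -0.81 ± 0.37. DESeq2 called 0 in both. Limma voom with sample weights called 3 in each: Ctsb (-0.98), Ctsd (1.38) and Apoe (0.999) against anti-IL-33, and Ctsb (-1.41), Ctsk (-1.17) and Ctsd (1.17) against anti-IL-4Rα. Of all 15979 genes it called 3736 higher and 4066 lower against anti-IL-33, and 4163 higher and 4346 lower against anti-IL-4Rα. The 3 calls among the 10 genes do not stand out from these counts.

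The last comparison asked how far the lungs under both antibodies remained from saline. Of the 10 genes 9 were higher than in saline and 0 lower, against 48.1% of all genes called (27.8% higher). For 7 genes the groups did not overlap, as for 8.07% of all genes. Gpnmb remained 26.9-fold higher (4.75 ± 0.62), Ctsk 18.4-fold and Atp6v0d2 13.3-fold (3.73 ± 0.33). Ctsd was 15.0-fold higher (3.91 on the log2 scale) and Trem2 13.7-fold (3.78 ± 0.42), and both values were smaller without the steep libraries (2.88 and 3.09) and in the GC covariate fit (2.76 and 3.05). Apoe was at 1.89 ± 0.38, and at 1.22 and 1.04 in those fits, in which all 3 genes still passed.

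The calls of Lpl, Cd9 and Ctsl in this comparison depended on single mice or on the fit. Lpl was at 1.30 ± 0.38 (adjusted p = 0.00632), but did not pass without combination replicate 1 (0.93, adjusted p = 0.0544), the mouse with its highest level, or without the steep libraries (0.95, adjusted p = 0.104). Cd9 was at 0.69 ± 0.25 (adjusted p = 0.0225). Its call was lost without saline replicate 3 or 5 or combination replicate 3 or 5 (0.58 to 0.64, adjusted p = 0.0514 to 0.0674), with limma voom (0.53, adjusted p = 0.0574) and with the compared groups alone (0.70, adjusted p = 0.0885). Ctsl was at 0.98 ± 0.40 (adjusted p = 0.0382), with its lowest mouse at 276 CPM and the highest saline mouse at 221. Its call was lost without saline replicate 1, 2, 4 or 5 or combination replicate 1, 3 or 5 (0.90 to 1.02, adjusted p = 0.0571 to 0.0839), without the steep libraries (1.06, adjusted p = 0.164), with upper-quartile factors (0.93, adjusted p = 0.0509) and with no filter on low counts (0.96, adjusted p = 0.0546).

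Ctsb did not pass, at 0.78 ± 0.38 (adjusted p = 0.0871), and 3 of the 5 combination mice lay above every saline mouse. The other 2, at 411 and 496 CPM beside a saline range of 423 to 595, were replicates 1 and 8, the steep libraries with high erythroid markers. Ctsb passed as higher than saline without the steep libraries (1.23, adjusted p = 0.0143) and in the GC covariate fit (1.20, adjusted p = 0.018). The failure to pass in the fit of all libraries does not show a return to the saline level.

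The 10 profiles over the 43 libraries were compared by the root mean square difference of centred log2 CPM, where 0 means the same profile. They were not scaled, so the size of a gene's changes enters as well as their shape. The closest pairs were Ctsb with Ctsl (0.49), Trem2 with Ctsd (0.53) and Gpnmb with Ctsk (0.61), and the farthest was Gpnmb with Cd9 (1.72). Of 14413 genes compared, those nearest to Trem2 were Hk3, a hexokinase gene, Lgals3 and Stac2 (0.36, 0.45 and 0.47). Hk3 followed it from 6.96 CPM in saline to 80.8 at 19 weeks and 53.5 with both antibodies. Nearest to Atp6v0d2 were 3 genes of innate immune receptors, Clec5a, Lilr4b and Clec7a (0.38, 0.44 and 0.45). Nearest to Ctsk were Stra6l (0.48), Gpnmb and Itih4 (0.63), and nearest to Gpnmb were Ctsk, Rph3a (0.69) and Stra6l (0.75). All profiles come from the same libraries, and no test was made of their likeness.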

How the data were processed

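Whole-lung RNA of 43 mice was sequenced. Per the labels' protocols, 500 ng of RNA went into stranded KAPA mRNA libraries read as single reads of 33 cycles. The deposited values are expected counts (estimated reads per NCBI Gene ID, not scaled), of which the nonzero values are whole numbers in 76.8%. Per the submitters' processing notes the build was mm10; which aligner, counter and annotation were used is not given in the sources used here. The design text names exposures of 4, 15 or 19 weeks while the labels give 11 or 19, and the labels were used.

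Values were rounded to integers. Genes passing filterByExpr by group (15979, all 10 members among them) were fitted in edgeR 4.0.16 (R 4.3.3) with TMM factors and a robust quasi-likelihood fit of group means over all 43 libraries. The 2-sided p-values were adjusted over all genes (Benjamini-Hochberg) and called at 0.05. Values after ± are SE for log2 fold changes and SD for CPM, and intervals are 95%. Log2 CPM used a prior count of 1. The steps were tested on simulated data. CPM per kilobase used the longest RefSeq-matched GENCODE M21 transcript, and GC slopes used transcript GC content of 24081 genes.

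The members, gene lists and markers were chosen with earlier results of these data known. The text names all 10 members, the called genes of each list with the largest change (up to 4 per list, at 19 weeks against saline and in combination against isotype), any list gene that stands beside a member, and the 3 nearest genes by profile of 4 members. Alternatives were DESeq2 1.42.0, limma voom 3.58.1 with sample weights, other scaling and filters, a replicate block, the GC slope as a covariate, leaving out steep libraries, fitting the compared groups alone, and leaving out each library.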

Additional observations from a re-analysis of the deposited data

Results flagged for a closer look

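In 4 of 70 combinations of gene and group, 1 mouse stood apart from the rest by Dixon's criterion; chance gives about 1 in 20. Trem2 in combination replicate 2 was the lowest of its group at 4.24 log2 CPM (18.8 CPM against a group median of 71.6), and Ctsd was also lowest in that mouse. Its library had the lowest GC slope of all, -1.01. Gpnmb in combination replicate 1, a steep library, was lowest at 8.97 log2 CPM (500 CPM against 877). Apoe in saline replicate 3 was highest at 8.43 log2 CPM (345 CPM against 219), the mouse with 1131 CPM of adipocyte markers and 12390 CPM of squamous epithelium markers. Ctsb in anti-IL-4Rα replicate 2 was lowest at 8.58 log2 CPM (382 CPM against 1559), the steep library with 192900 CPM of erythroid markers. Whether these markers or the GC slopes bear on the values was not tested.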

How the results depend on the processing

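Over 11 alternatives and the removal of each library in turn, no value called by edgeR in all 43 libraries changed sign. A value not called there could do so: Ctsd in the combination against isotype was called higher by limma voom (1.20) and without combination replicate 2 (1.01), and was at -0.25 without the steep libraries. The number of the 10 genes called against saline was 7 to 10 at 11 weeks and 9 to 10 at 19 weeks over the alternatives, and 7 and 8 to 9 when a library was left out. Between 19 and 11 weeks DESeq2 and limma voom each called 1. For anti-IL-33 against isotype limma voom called 1. For the combination against isotype the count was 3, 0 without the steep libraries, and 0 to 5 when a library was left out, with 5 without combination replicate 2. Limma voom called 3 for the combination against anti-IL-33 and 3 against anti-IL-4Rα, where edgeR called 0. Of all 15979 genes limma voom called 3736 higher and 4066 lower in the first, and 4163 and 4346 in the second. Against saline the combination gave 8 to 10 over the alternatives and 7 to 9 when a library was left out. For the single genes, 1061 values stayed on their side of the threshold, 29 passed newly and 10 no longer passed, with 4277, 3 and 20 when leaving out libraries.

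Replicate numbers are shared across groups, but same-numbered libraries did not deviate together: the median correlation over 88 such pairs was -0.0118 (0.00779 for other pairs), 31 exceeded 0.1, and 5 of 43 libraries correlated best with their own number. With the replicate number as a block the counts were 7 at 11 weeks and 9 at 19 weeks against saline, 0 for the single antibodies, 9 for the combination against saline, and 2 for the combination against isotype, where Ctsk was at -1.38 (adjusted p = 0.0711). For all genes in that comparison 262 were then called higher and 289 lower, against 2019 and 1010 without the block, 2937 and 1527 with DESeq2, 4497 and 4764 with limma voom and 489 and 219 without the steep libraries. The combination, with 5 libraries of which 2 have no steep slope, limits what can be told of it.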
